A study of Homo sapiens with 15 samples.

Results

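The comparison was between 4 libraries labelled NFATC4-KO (replicates 1, 2, 3 and 5) and 4 labelled control (replicates 1 to 4), which together are 8 of the 15 RNA-Seq libraries of the series. All came from NCI-H295R, an established human line from an adrenocortical carcinoma, which secretes aldosterone and cortisol. For the knockout, the study transfected these cells with Cas9 plasmids carrying a pair of guides against NFATC4 and grew single-cell clones, and control cells received empty plasmid in parallel. The other 7 libraries, used only for values side by side, are 3 of cells transfected with a constitutively active NFATC4 and 4 of mock-transfected cells. Which clone each NFATC4-KO library represents, and whether the libraries are separate cultures, is not given in the sources used here, so the tests reflect only how far these libraries vary, which may be technical. The guide sequences are not shown.

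The 8 libraries were placed in 2 sets, chosen by the measured levels of NFATC4, CYP11B2 and SEL1L3 and the split of the libraries across genes, not by any label. Set A held control 1, control 2, NFATC4-KO 1 and NFATC4-KO 2, and set B held control 3, control 4, NFATC4-KO 3 and NFATC4-KO 5. Each set therefore had 2 libraries per label. The label effect was fitted with the set as a second term, so that NFATC4-KO was compared with control inside each set. Levels are given as CPM, the standard depth-scaled count, after scaling by trimmed mean of M values (TMM) factors, and a label effect is the log2 fold change of NFATC4-KO over control with its SE. A gene was called when its adjusted p (edgeR quasi-likelihood test, Benjamini-Hochberg) was under 0.05. Since the sets came from the data, no difference between set A and set B was tested, and the set term leaves a smaller residual spread than sets fixed in advance would.

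NFATC4 is a transcription factor that is held in the cytoplasm while phosphorylated. Calcineurin, a phosphatase switched on by calcium, removes these phosphates and lets it enter the nucleus. In adrenocortical cells, calcium entry after potassium or angiotensin II raises transcription of CYP11B2, the aldosterone synthase, while STAR, CYP11A1, HSD3B2, CYP17A1 and CYP21A2 supply earlier steps of steroid synthesis.

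The libraries held between 20.6 and 25.9 M assigned counts, and 13868 of 21493 genes had enough counts to be tested. Across genes, log2 CPM correlated at 0.9932 to 0.9936 between control and NFATC4-KO libraries inside set A, at 0.9875 to 0.9928 inside set B, and at 0.956 to 0.963 between the sets. The first principal component held 77.0% of the variance and separated the sets, and the second held 8.85% and separated the labels in both sets. The sets were chosen with the split across genes known, so their separation is a description. Adrenocortical genes were expressed in every library. Markers of blood, endothelium and adrenal medulla were at or near 0, with no count of CD3E, HBB, CDH5, TH or PNMT in any library and 1 count of PTPRC in all, so only 2 of these 16 genes could be tested. Fewer cells expressing a gene and less RNA per cell cannot be told apart in these bulk libraries.

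The targeted gene did not follow the label in both sets. NFATC4 (chr14:24365673-24379604, plus strand, GRCh38) was at 115 and 110 CPM in controls 1 and 2 and at 92.7 and 85.6 CPM in NFATC4-KO 1 and 2. In set B it was at 45.4 and 54.6 CPM in controls 3 and 4 and at 57.9 and 54.0 CPM in NFATC4-KO 3 and 5. The labels did not overlap in set A, where NFATC4 was lower in NFATC4-KO, and they overlapped in set B. Both controls of set B lay below both NFATC4-KO libraries of set A, a description only, since NFATC4 was used to choose the sets. The label effect on NFATC4 was −0.33 ± 0.05 in set A (adjusted p = 0.00048), 0.18 ± 0.10 in set B (adjusted p = 0.267) and −0.10 ± 0.09 over both sets (adjusted p = 0.514). It was called without control 3, at −0.20 (adjusted p = 0.0293). The difference between the sets was 0.50 ± 0.12, with an adjusted p of 0.0603. Since libraries alike in NFATC4 were placed together, its spread inside the sets was made smaller. These SEs and adjusted p values are therefore descriptions, not tests. Counts per whole gene do not show the edited sites. In every library labelled NFATC4-KO at least 1250 NFATC4 counts remained. Whether a label is wrong for some libraries cannot be told from these counts and was not tested, so the labels are uncertain. NFATC4-KO and control mean libraries so labelled, with each direction that of the labels as deposited.

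The other genes that marked the sets did not follow the label. CYP11B2, the aldosterone synthase, had 72, 72, 48 and 78 counts in control 1, control 2, NFATC4-KO 1 and NFATC4-KO 2, and 0, 3, 2 and 2 counts in control 3, control 4, NFATC4-KO 3 and NFATC4-KO 5. The label effect was −0.01 ± 0.25 (adjusted p = 0.99), and in set B the counts were too few to show a difference. CYP11B1, the 11β-hydroxylase of cortisol synthesis and a close paralog whose reads can be confused with it, had 35, 45, 23 and 21 counts in the same order in set A and 0, 0, 1 and 2 in set B. It was lower in both NFATC4-KO libraries of set A, but the effect of −0.56 ± 0.34 was not called (adjusted p = 0.319). SEL1L3, a membrane protein gene, was at 18.5, 16.4, 19.4 and 18.0 CPM in set A and at 2.66, 1.81, 1.93 and 2.81 CPM in set B, in the same order. Its labels overlapped in both sets, with an effect of 0.10 ± 0.12 (adjusted p = 0.652). CYP11B2 and SEL1L3 also helped choose the sets, so their SEs and adjusted p values are descriptions too.

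**Figure D1:**
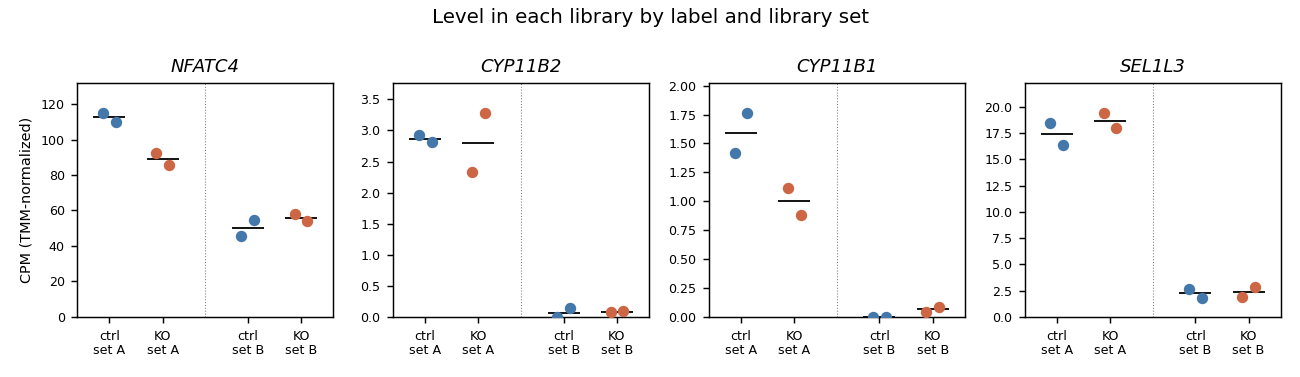
Level of NFATC4, CYP11B2, CYP11B1 and SEL1L3 in each of the 8 libraries, in CPM on linear axes that start at 0, by label and set. Each point is 1 library and each line the mean of 2. The sets were chosen by NFATC4, CYP11B2 and SEL1L3, so that they stand apart for these genes is no result. For NFATC4 the labels are apart in set A alone, with 110 and 115 CPM in controls against 85.6 and 92.7 CPM in NFATC4-KO.

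Within sets, 609 genes were called higher in NFATC4-KO (4.39% of those tested) and 837 lower (6.04%), 10.4% in all. The changes were small. The median size of the log2 fold change was 0.32 among called genes, and 18 called genes were at least 2-fold higher and 18 at least 2-fold lower. With the label alone and no set term, edgeR called 0 genes, and 1257 of 13868 had an unadjusted p under 0.05, so every call given here rests on the set term. The counts of higher and lower genes were 378 and 569 without control 1, 289 and 532 without NFATC4-KO 1, 951 and 1170 without control 3, 339 and 481 without control 4 and 225 and 392 without NFATC4-KO 5. For a single gene, 36 arrangements of the labels inside the sets exist, and the smallest two-sided p of an exact permutation test over them is 0.0556.

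The label effects of the sets, which share no library, agreed for part of the genes. In set A alone, 1096 genes (7.9%) were called higher and 1203 (8.67%) lower, and in set B alone 800 (5.77%) and 635 (4.58%). Of the 2299 genes called in set A, 1633 (71.0%) had the same direction in set B. Of the 1435 called in set B, 1112 (77.5%) had the same direction in set A. Among all genes tested the direction was the same for 56.9%. NFATC4-KO lay wholly above control in both sets for 1338 genes (9.65%) and wholly below in both for 1621 (11.7%), 21.3% in all, and 1325 (9.55%) were apart in opposite directions. There were 437 genes called in both sets, with 167 higher in both, 249 lower in both, 2 higher in A and lower in B and 19 lower in A and higher in B. Agreement was highest for genes called lower in set B, 88.0% of which were lower in set A, and lowest for genes called lower in set A, 66.5% of which were lower in set B. Across the 13868 genes the log2 fold changes of the sets correlated at r = 0.304 (Spearman's rho 0.279), a description over genes that are not independent.

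Each separate fit had 2 libraries per label and 2 residual degrees of freedom. A fit of all 8 libraries with a mean for each label in each set called 287 higher and 493 lower in set A and 988 and 1119 in set B. In that fit, set A counts fell to 59 and 165 without control 1, 45 and 148 without control 2, 38 and 128 without NFATC4-KO 1 and 38 and 79 without NFATC4-KO 2. Set B counts were 303 and 500 without control 3, 1978 and 2012 without control 4, 714 and 798 without NFATC4-KO 3, and 163 and 225 without NFATC4-KO 5.

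**Figure D2:**
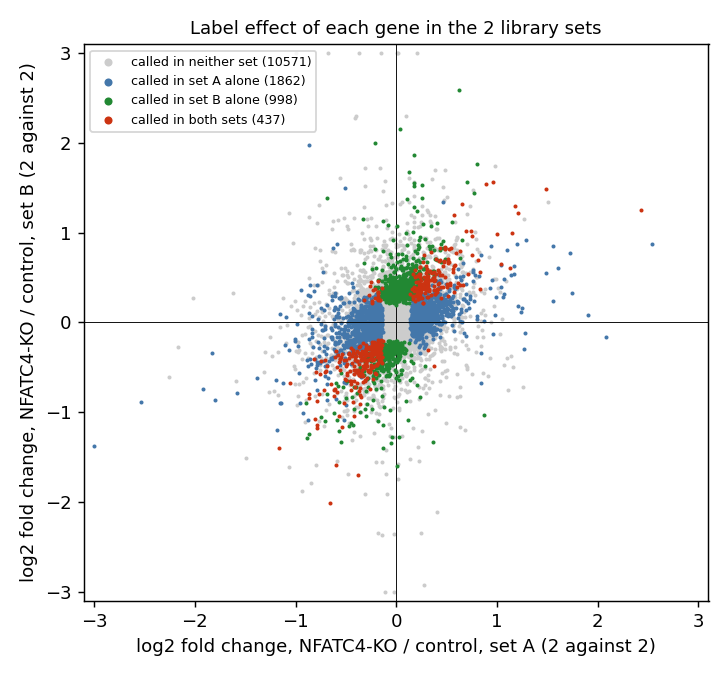
Label effect of each of the 13868 genes tested, as log2 fold change of NFATC4-KO over control in set A (horizontal) and in set B (vertical), each from a separate fit of 2 against 2 libraries. Each point is a gene, coloured by the sets in which it was called, and values beyond 3 in size are drawn at 3. Most of the 437 genes called in both sets lie in the lower left (249) or upper right (167).

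Genes of steroid synthesis were lower in NFATC4-KO where they were called. Of 16 genes of aldosterone and cortisol synthesis that could be tested, 6 were called lower and 0 higher by edgeR, as by DESeq2 and by limma-voom, and at an unadjusted p under 0.05 the counts were 7 and 0. Over all genes tested, edgeR called 6.04% lower and 4.39% higher. The median log2 fold change of the list was −0.22, against −0.0052 for all genes tested. Leaving out each library in turn gave 4 to 7 lower and 0 higher.

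CYP17A1, the 17α-hydroxylase that directs steroids toward cortisol and androgens, had the largest fall of the list. It was at 183 and 197 CPM in controls 1 and 2 against 115 and 116 CPM in NFATC4-KO 1 and 2, and at 84.4 and 99.6 CPM in controls 3 and 4 against 58.5 and 49.5 CPM in NFATC4-KO 3 and 5. The labels did not overlap in either set, while the controls of set B lay below the NFATC4-KO libraries of set A. The label effect was −0.74 ± 0.06 (adjusted p = 1.13e-05), −0.72 in set A and −0.75 in set B. SULT2A1, which sulfates dehydroepiandrosterone, was at 150 and 158 CPM against 112 and 124 CPM in set A and at 63.6 and 62.4 CPM against 47.8 and 36.4 CPM in set B. It was lower in NFATC4-KO in both sets, by −0.48 ± 0.07 (adjusted p = 0.000756). STAR, which carries cholesterol into mitochondria, was at 687 and 746 CPM in controls against 501 and 535 CPM in NFATC4-KO of set A, and at 277 and 312 CPM against 242 and 213 CPM in set B. The labels were again apart in both sets, with an effect of −0.42 ± 0.06 (adjusted p = 0.000268). FDX1, the ferredoxin that passes electrons to mitochondrial P450 enzymes, was lower by −0.28 ± 0.06 (adjusted p = 0.00826). These 4 genes were called in each of the 8 fits that left out 1 library. Exons of CYP17A1 and STAR overlap those of WBP1L and ASH2L on the opposite strand, and the strand setting of the counting is not given in the sources used here.

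MC2R, the ACTH receptor, and HSD3B2, the 3β-hydroxysteroid dehydrogenase, completed the 6. MC2R was at 5.52 and 6.38 CPM against 3.49 and 4.07 CPM in set A and at 5.28 and 3.85 CPM against 3.87 and 3.03 CPM in set B, where the labels overlapped. Its effect was −0.53 ± 0.14 (adjusted p = 0.022), and it was not called without control 2, NFATC4-KO 1 or NFATC4-KO 5 (adjusted p up to 0.0933). HSD3B2 was at 37 and 39.6 CPM against 21.7 and 24.7 CPM in set A and at 41.1 and 38.7 CPM against 39.3 and 30.9 CPM in set B, with overlap in set B. Its effect was −0.44 ± 0.10 (adjusted p = 0.0086), and it was not called without NFATC4-KO 1 (adjusted p = 0.0532). Its close paralog HSD3B1 had at most 5 counts in a library.

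The same list differed between the sets. Its median was −0.36 in set A, with 11 genes called lower and 0 higher, and 0.08 in set B, with 4 lower and 2 higher. The test of the difference itself, the interaction of label and set, was called for 43 of all genes (0.31%) and for 4 of these 16. CYP21A2, the 21-hydroxylase, was at 118 and 136 CPM in controls against 73.1 and 77.3 CPM in NFATC4-KO of set A, and at 37.5 and 37.4 CPM against 41.6 and 41.3 CPM in set B. It was lower in NFATC4-KO by −0.75 ± 0.06 in set A and had an effect of 0.16 ± 0.11 in set B, a difference of 0.90 ± 0.11 (adjusted p = 0.00037). Its reads can be shared with a near-identical pseudogene, and its exons overlap TNXB on the other strand.

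POR, the electron donor of microsomal P450 enzymes, was lower in set A (−0.19) and higher in set B (0.27), with an adjusted p of 0.0353 for the difference. FDXR, the ferredoxin reductase, had effects of −0.24 in set A and 0.24 in set B (adjusted p for the difference 0.0163), and SCARB1, the receptor that takes up cholesterol from HDL, had −0.32 and 0.14 (adjusted p 0.00836). CYP11A1, the side-chain cleavage enzyme, had −0.24 in set A and 0.14 in set B, and its difference was not called (adjusted p = 0.0603).

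**Figure D3:**
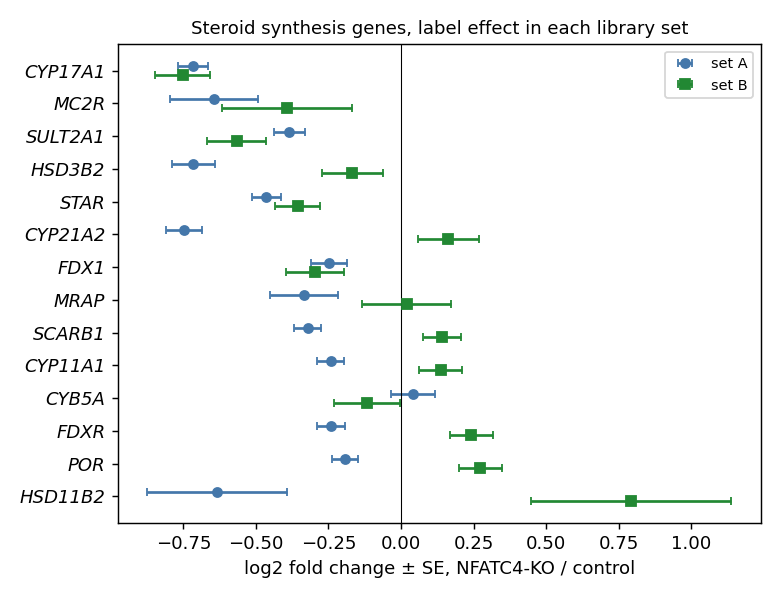
Label effect on 14 genes of steroid synthesis in set A (circles) and set B (squares), as log2 fold change of NFATC4-KO over control with SE bars, 2 against 2 libraries in each. CYP11B1 and CYP11B2 are left out because set B held at most 3 counts of either. CYP17A1, SULT2A1, STAR and FDX1 lie below 0 in both sets, and CYP21A2 lies at −0.75 in set A and 0.16 in set B.

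The sequences before the starts of CYP17A1 and SULT2A1 are shown because these genes fell in both sets. They come from RefSeq (GRCh38.p14), in the direction of the gene, from 250 bases before its start to the first base that the GENCODE annotation transcribes. Capitals mark a match to TGGAAA, the core bound by NFAT proteins, to TGACGTCA, the cyclic AMP response element, or to AAAGGTCA, the element bound by NR4A proteins, searched on both strands.
CYP17A1, chr10:102837473-102837663, minus strand: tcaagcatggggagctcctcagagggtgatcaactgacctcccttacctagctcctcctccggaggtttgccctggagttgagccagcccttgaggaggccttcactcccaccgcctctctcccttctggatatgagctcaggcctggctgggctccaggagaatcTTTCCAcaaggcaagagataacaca
SULT2A1, chr19:47886316-47886565, minus strand: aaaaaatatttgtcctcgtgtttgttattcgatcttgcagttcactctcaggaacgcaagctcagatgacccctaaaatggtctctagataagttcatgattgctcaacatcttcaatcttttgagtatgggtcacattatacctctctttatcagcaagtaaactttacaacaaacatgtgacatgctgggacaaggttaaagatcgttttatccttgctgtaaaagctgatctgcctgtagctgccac
CYP17A1 held TGGAAA on the reverse strand, 84 bases before the RefSeq start, and SULT2A1 held none of the 3 motifs in this window. Over the 250 bases before the start, TGGAAA was found in 16.3% of the genes called lower, in 14.5% of those called higher and in 13.5% of all 10808 tested genes with a promoter in the table.

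Factors that set adrenocortical identity were lower or not called. Of 9 tested lineage factors 2 were called lower and 0 higher, beside 6.04% and 4.39% of all genes tested. With limma-voom, 5 were lower and 0 higher, where 1428 and 1162 of all genes were so called. The median log2 fold change in edgeR was −0.14. NR5A1, also called SF-1, which drives the steroidogenic genes, was at 475 and 506 CPM in controls against 341 and 348 CPM in NFATC4-KO of set A, and at 344 and 399 CPM against 342 and 327 CPM in set B. The labels were apart in both sets, although control 3 and NFATC4-KO 3 were nearly level. Over both sets the effect was −0.33 ± 0.07 (adjusted p = 0.00417), called without any 1 library. It was −0.51 ± 0.05 in set A (adjusted p = 1.41e-06) and −0.14 ± 0.07 in set B, where it was not called (adjusted p = 0.234). The difference of 0.36 ± 0.09 was not called (adjusted p = 0.0792).

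Among 15 genes of the NFAT family and calcineurin, 2 were called lower and 0 higher, beside 6.04% and 4.39% of all genes tested. The median was 0.026, with 3 above and 2 below 0 at an unadjusted p under 0.05. PPP3CA, a catalytic subunit of calcineurin, was at 83.5 and 81.1 CPM in controls against 69.3 and 71.1 CPM in NFATC4-KO of set A, and at 79.1 and 79.5 CPM against 62.1 and 60.6 CPM in set B. It was lower in both sets, by −0.30 ± 0.06 (adjusted p = 0.00245). PPP3R1, the regulatory subunit, was lower by −0.21 ± 0.06 (adjusted p = 0.0225) and was called in 3 of the 8 fits that left out a library. RCAN1, a calcineurin inhibitor that NFAT proteins induce, had an effect of 0.05 (adjusted p = 0.732), and NFATC1, NFATC2, NFATC3 and NFAT5 had effects between −0.13 and 0.13, none of them called.

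Immediate early genes were called in both directions. Of 17 tested, 3 were higher and 1 lower, beside 4.39% and 6.04% of all genes tested. The median was 0.11, and leaving out single libraries gave 2 to 4 higher. In set A alone 4 were called higher and 3 lower, and in set B alone 3 and 0. ATF3, a stress-induced transcription factor, was at 1.46 and 1.76 CPM in controls against 3.44 and 3.70 CPM in NFATC4-KO of set A, and at 2.18 and 2.36 CPM against 4.04 and 4.97 CPM in set B. Every NFATC4-KO library lay above every control, and the effect was 1.06 ± 0.15 (adjusted p = 0.000385). EGR1, a zinc-finger factor induced by growth signals, was at 12.8 and 14.4 CPM against 23.7 and 24.5 CPM in set A and at 16.1 and 15.6 CPM against 20.6 and 25.8 CPM in set B. It was higher in all 4 NFATC4-KO libraries than in all 4 controls, by 0.69 ± 0.09 (adjusted p = 0.000251). ATF3 and EGR1 were called without any 1 library. FOS, a subunit of AP-1, was near 1 to 3 CPM and higher by 0.85 ± 0.24 (adjusted p = 0.0324), and it was not called without control 1, NFATC4-KO 2 or NFATC4-KO 3 (adjusted p up to 0.134).

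The NR4A receptors, which bind the CYP11B2 promoter, did not move together. NR4A3 was at 85.0 and 94.5 CPM in controls against 66.9 and 66.8 CPM in NFATC4-KO of set A, and at 70.4 and 69.6 CPM against 67.5 and 67.3 CPM in set B. It was lower by −0.24 ± 0.07 (adjusted p = 0.0342) but was not called when any 1 of the 4 libraries of set A was left out (adjusted p up to 0.146). NR4A1 was at 340 and 324 CPM against 295.1 and 303 CPM in set A and at 201 and 230 CPM against 272 and 283 CPM in set B. It was lower in NFATC4-KO in set A (−0.15, adjusted p = 0.0388) and higher in set B (0.38, adjusted p = 7.34e-05), and the difference of 0.52 ± 0.09 was called (adjusted p = 0.00836). NR4A2 had an effect of 0.09 ± 0.14 (adjusted p = 0.738).

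The sequences before ATF3 and EGR1, which rose in both sets, are shown in the same way.
ATF3, chr1:212565157-212565333, plus strand: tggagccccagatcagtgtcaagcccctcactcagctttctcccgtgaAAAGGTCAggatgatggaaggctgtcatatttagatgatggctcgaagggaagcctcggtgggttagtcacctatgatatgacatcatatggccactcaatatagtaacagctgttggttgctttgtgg
EGR1, chr5:138465229-138465478, plus strand: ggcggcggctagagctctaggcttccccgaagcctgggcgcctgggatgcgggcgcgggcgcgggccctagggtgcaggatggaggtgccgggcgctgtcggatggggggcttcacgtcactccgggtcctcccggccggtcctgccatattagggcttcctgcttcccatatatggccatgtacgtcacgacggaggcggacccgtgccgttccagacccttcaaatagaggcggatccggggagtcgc
ATF3 held AAAGGTCA 202 bases before the RefSeq start, a motif found in 0.657% of all promoters, 0.408% of those of genes called higher and 0.912% of those called lower. EGR1 held none of the 3. TGACGTCA was found in 2.89%, 2.65% and 2.13% of these groups.

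Genes of calcium entry and release were called in both directions. Of 22 tested, 5 were lower and 1 higher, beside 6.04% and 4.39% of all genes tested. The median was −0.076 over both sets, −0.18 in set A and 0.024 in set B. CACNA1C, a pore subunit of L-type calcium channels, was at 96.0 and 90.4 CPM in controls against 77.5 and 69.8 CPM in NFATC4-KO of set A, and at 98.8 and 89.3 CPM against 75.0 and 74.9 CPM in set B. Every NFATC4-KO library lay below every control, with an effect of −0.33 ± 0.06 (adjusted p = 0.00156). ITPR2, an inositol trisphosphate receptor of the endoplasmic reticulum, was at 457 and 439 CPM against 408 and 369 CPM in set A and at 602 and 596 CPM against 456 and 400 CPM in set B. It was lower in both sets, by −0.35 ± 0.06 (adjusted p = 0.00173). RYR2, a ryanodine receptor, was lower by −0.39 ± 0.08 (adjusted p = 0.00644). CACNA1D, whose mutations cause aldosterone-producing adenomas, was lower by −0.26 ± 0.06 (adjusted p = 0.0134) but not called without control 1 or NFATC4-KO 5, and ATP2B4, a plasma membrane calcium pump, was lower by −0.21 (adjusted p = 0.033) and called in 3 of 8 such fits. ORAI1, the pore of store-operated calcium entry, was higher, by 0.33 ± 0.08 (adjusted p = 0.0149).

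Of 10 tested genes of potassium channels and the sodium pump, 3 were called lower and 1 higher, beside 6.04% and 4.39% of all genes tested. The median was −0.095 over both sets, −0.14 in set A and −0.017 in set B. KCNK2, the background potassium channel TREK-1, was at 22.6 and 20.8 CPM in controls against 14.1 and 14.03 CPM in NFATC4-KO of set A, and at 10.9 and 10.6 CPM against 6.79 and 5.79 CPM in set B. It was lower in both sets, by −0.69 ± 0.09 (adjusted p = 0.000191). KCNMA1, the large-conductance calcium-activated channel, was lower by −0.31 ± 0.06 (adjusted p = 0.00335). KCNK3, the background channel TASK-1, was lower by −0.15 ± 0.05 (adjusted p = 0.0397) and called in 2 of 8 fits that left out a library, and CLCN2, a chloride channel mutated in familial hyperaldosteronism, was higher by 0.29 ± 0.08 (adjusted p = 0.0313) and called in 3 of 8.

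Cholesterol genes were called in both directions, with 3 of 20 higher and 1 lower, beside 4.39% and 6.04% of all genes tested. The median was 0.0035 over both sets, −0.081 in set A and 0.11 in set B. The synthesis enzymes MVD (0.40 ± 0.11, adjusted p = 0.031), LSS (0.24 ± 0.07, adjusted p = 0.0268) and SC5D (0.25 ± 0.06, adjusted p = 0.0203) were higher. MVD and LSS were called in 5 of 8 fits that left out a library and SC5D in 2 of 8.

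**Figure D4:**
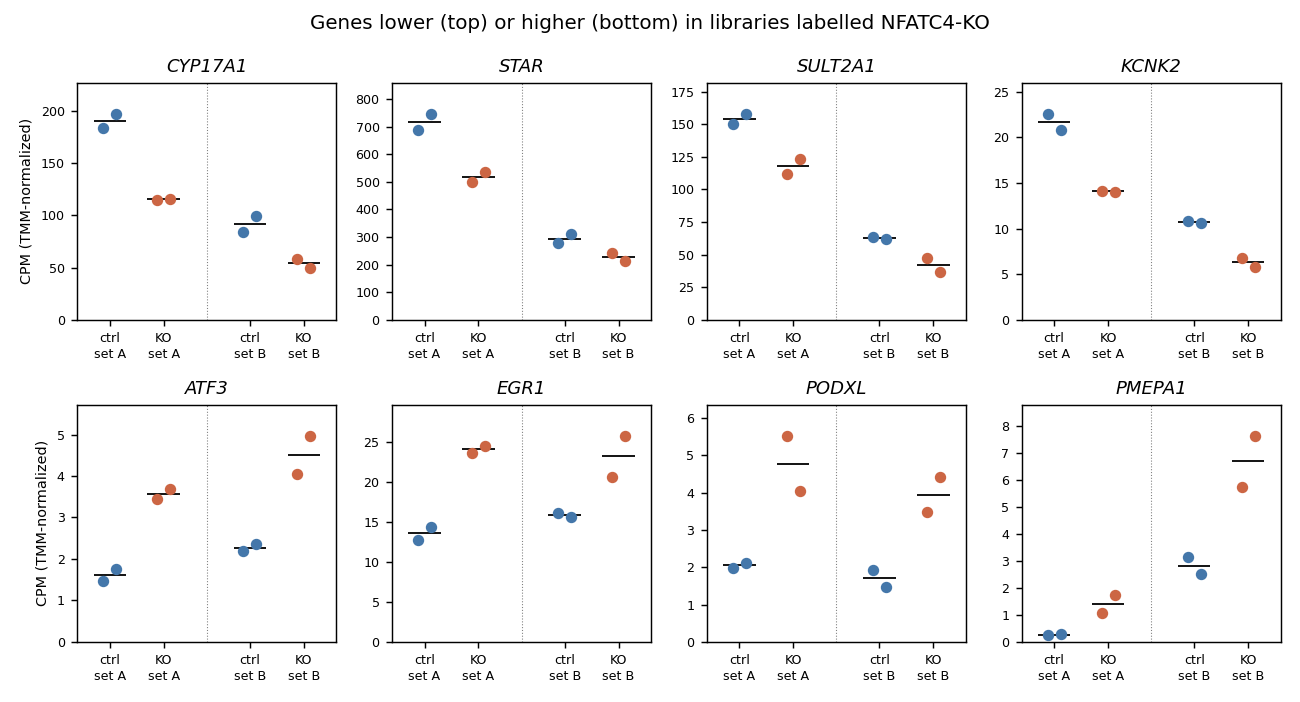
Level in each of the 8 libraries, in CPM on linear axes that start at 0, of 4 genes called lower (CYP17A1, STAR, SULT2A1, KCNK2) and 4 called higher (ATF3, EGR1, PODXL, PMEPA1) in NFATC4-KO, by label and set. Each point is 1 library and each line the mean of 2. The labels are apart inside both sets for all 8, which for PODXL and PMEPA1 follows from how they were chosen. For CYP17A1, STAR, SULT2A1 and KCNK2 the controls of set B lie below the NFATC4-KO libraries of set A.

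The 10 genes that rose most, among those with at least 1 CPM in a label and no overlap of labels inside either set, ranged from 1.12 to 1.48 on the log2 scale. Because they were chosen this way from called genes, neither their calls nor the separation of their labels inside each set is a result. LRIG1, DLX2, SLC45A2, SEMA3F and GFOD1 passed the level filter through NFATC4-KO. LRIG1, which restrains receptors of the EGF family, was at 0.528 and 0.704 CPM in controls against 2.08 and 1.43 CPM in NFATC4-KO of set A, and at 0.567 and 0.371 CPM against 1.07 and 1.56 CPM in set B. Its effect was 1.48 ± 0.26 (adjusted p = 0.00173), and its exons overlap SLC25A26 on the opposite strand. PMEPA1, a membrane protein that restrains TGF-β signalling, was at 0.244 and 0.274 CPM against 1.07 and 1.72 CPM in set A and at 3.14 and 2.504 CPM against 5.76 and 7.65 CPM in set B. Its effect was 1.47 ± 0.22 (adjusted p = 0.000479). PODXL, a sialomucin of the cell surface, was at 1.99 and 2.11 CPM against 5.53 and 4.03 CPM in set A and at 1.92 and 1.48 CPM against 3.48 and 4.41 CPM in set B. Its effect was 1.21 ± 0.16 (adjusted p = 0.000268), with nearly the same value in both sets (1.21 and 1.22). DLX2, a homeobox factor, rose by 1.23 ± 0.23 (adjusted p = 0.00259). These 4 genes were called without any 1 library, in fits that share their libraries with the fit that chose the genes, so this is no further support.

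The others were SLC45A2, a melanosome transporter (1.30), SEMA3F, a secreted semaphorin (1.22), SMPD3, a neutral sphingomyelinase (1.22), GFOD1 (1.16), TIGD3 (1.14) and STARD5, a sterol-binding protein (1.12). Without NFATC4-KO 5, SLC45A2, SEMA3F and TIGD3 were no longer called, with adjusted p between 0.0601 and 0.0657, and SEMA3F was not called without NFATC4-KO 1 either. SMPD3, GFOD1 and STARD5 were called in all 8 such fits, which again is no further support.

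The 10 genes that fell most, chosen in the same way, ranged from −1.30 to −0.999, and all but ANGPTL1, SNCAIP and BCL2L15 passed the level filter through control. ANGPTL1, a secreted angiopoietin-like protein, was at 4.06 and 4.66 CPM in controls against 2.71 and 2.35 CPM in NFATC4-KO of set A, and at 10.1 and 9.32 CPM against 4.47 and 4.06 CPM in set B. Its effect was −1.02 ± 0.13 (adjusted p = 0.00019). SNCAIP, which encodes the synuclein-binding protein synphilin-1, was at 4.67 and 3.13 CPM against 1.89 and 2.56 CPM in set A and at 8.37 and 8.11 CPM against 4.38 and 3.03 CPM in set B. Its effect was −1.004 ± 0.16 (adjusted p = 0.00101). BCL2L15, of the BCL2 family, was at 0.975 and 1.25 CPM against 0.533 and 0.672 CPM in set A and at 5.84 and 5.01 CPM against 2.49 and 2.03 CPM in set B, with an effect of −1.16 ± 0.18 (adjusted p = 0.000868). These 3 had the highest levels of the 10. They were called without any 1 library, in fits that share their libraries with the fit that chose them, so this is no further support.

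MACC1, a regulator of the receptor MET, had the largest fall (−1.30 ± 0.29, adjusted p = 0.0078) at levels of 0.388 to 1.30 CPM. The others were TNIP3 (−1.19), ARHGEF33 (−1.12), MYH11, a smooth muscle myosin (−1.02), OAS2, an interferon-induced enzyme (−1.02), ABCB11, the bile salt export pump (−1.01), and CST1, a cystatin (−0.999). ARHGEF33 shares exon sequence with MORN2 on the same strand. CST1 and OAS2 were called in 3 of 8 fits that left out a library, ARHGEF33 in 6 and ABCB11 in 7.

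Extracellular matrix and adhesion genes were called lower in 6 of 17 cases and higher in 1, PODXL, beside 6.04% and 4.39% of all genes tested. The median was −0.13 over both sets, −0.0057 in set A and −0.15 in set B. In set A alone 4 were called lower and 1 higher, and in set B alone 8 and 3. COL5A1, a fibrillar collagen chain, was lower by −0.55 ± 0.11 (adjusted p = 0.00378) and COL3A1, another, by −0.46 ± 0.10 (adjusted p = 0.0064). FN1, fibronectin, was at 12.4 and 11.7 CPM in controls against 11.5 and 9.20 CPM in NFATC4-KO of set A, and at 118 and 95.8 CPM against 82.0 and 63.3 CPM in set B. Its effect was −0.44 ± 0.10 (adjusted p = 0.0103), and it was not called without NFATC4-KO 5 (adjusted p = 0.0758). In the separate fits, COL3A1 and FN1 were called lower in set B but not in set A (adjusted p of 0.0592 and 0.187). ITGA1, an integrin that binds collagen and shares exon sequence with PELO, was lower by −0.36 ± 0.05 (adjusted p = 0.000412), SPARC, a matrix protein, by −0.20 ± 0.04 (adjusted p = 0.00551) and LAMC1, a laminin chain, by −0.22 ± 0.06 (adjusted p = 0.0294). LAMC1 was called in 4 of 8 fits that left out a library. Of 7 fibroblast markers, 2 were tested, COL1A1 and COL3A1, and the summed level of these 2 was 17.0 to 25.0 CPM in controls and 14.01 to 22.6 CPM in NFATC4-KO. PDGFRA had at most 3 counts in a library, and the part of other cells in these values was not tested.

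WNT genes were called lower in 4 of 14 cases and higher in 1, LRIG1, beside 6.04% and 4.39% of all genes tested. The median was −0.15 over both sets, −0.073 in set A and −0.17 in set B. LGR5, a receptor for R-spondins, was at 19.7 and 18.0 CPM in controls against 12.8 and 12.9 CPM in NFATC4-KO of set A, and at 81.6 and 79.99 CPM against 64.3 and 57.8 CPM in set B. It was lower in both sets, by −0.46 ± 0.07 (adjusted p = 0.000434). DKK3 (−0.23, adjusted p = 0.0247), RNF43, which removes WNT receptors from the surface (−0.22, adjusted p = 0.0225), and CTNNB1, β-catenin (−0.15, adjusted p = 0.0492), were lower too. They were called in 5, 4 and 1 of 8 fits that left out a library.

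The other lists are set beside the shares over all genes tested, 4.39% higher and 6.04% lower. Of 17 ATF4 targets of amino acid stress, 3 were higher, SESN2 (0.42 ± 0.08, adjusted p = 0.00433), ASNS, asparagine synthetase (0.29, adjusted p = 0.0224), and SLC3A2, an amino acid transporter chain (0.21, adjusted p = 0.0133), and CEBPB was lower (−0.31, adjusted p = 0.0235). The list gave 1 to 6 higher when libraries were left out. Of 22 genes of DNA replication and mitosis, 3 were lower, RRM2 (−0.24), TYMS (−0.18) and MCM7 (−0.17), with a median of 0.011. Of 18 genes of interferon response and MHC class I, 3 were lower, OAS2 (−1.02), IFIT2 (−0.36) and OAS1 (−0.34). Of 8 secretory granule genes 2 were lower, CHGB (−0.28) and VGF (−0.28). Of 20 genes of hypoxia and glycolysis 1 was higher, PFKFB4 (0.34), and 1 lower, PDK1 (−0.27). None of 17 chaperone genes of the endoplasmic reticulum was called by edgeR, with 1 at an unadjusted p under 0.05 and 1 called by DESeq2 and by limma-voom. None of 14 p53 targets was called by edgeR or DESeq2, with 4 at an unadjusted p under 0.05 and 1 called by limma-voom. SESN2, RRM2, CHGB and PDK1 were called in all 8 fits that left out a library, OAS1 in 7, SLC3A2 in 6, VGF in 5, PFKFB4 in 4, ASNS, CEBPB, IFIT2 and OAS2 in 3, TYMS in 2 and MCM7 in 1. Exons of DKK3, SMPD3, STARD5, MYH11, CLCN2, CACNA1D, IFIT2, TYMS and MCM7 overlap another gene on the opposite strand, and those of PFKFB4 overlap UCN2, and those of SMPD3, RNF43 and PPP3R1 an unnamed gene model, on the same strand, so their counts are less certain.

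**Figure D5:**
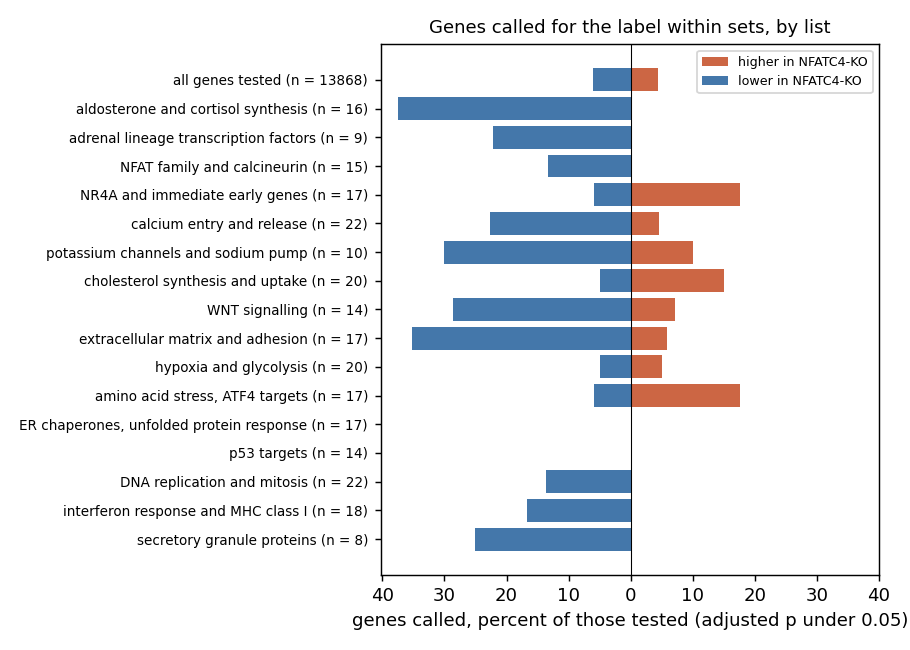
Share of the genes tested in each list that were called higher (right) or lower (left) in NFATC4-KO within sets, with all 13868 genes tested at the top (4.39% higher and 6.04% lower). Lists with at least 8 genes tested are drawn, and n is the number tested. The longest bar is that of aldosterone and cortisol synthesis, with 6 of 16 genes lower.

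Besides CYP21A2, 7 of the 9 genes named for their interaction of label and set were called in one set, and AHNAK and NID1 were called higher in set A and lower in set B. CYP21A2 and these 9 were chosen among genes called for the interaction, so those calls are no result. The 43 called genes comprised 35 whose effect was more positive in set B (0.252%) and 8 whose effect was more negative (0.0577%). At an unadjusted p under 0.05, 2741 genes differed. MMP15, a membrane-bound matrix protease, was at 26.2 and 28.3 CPM in controls against 25.7 and 24.0 CPM in NFATC4-KO of set A, and at 5.58 and 5.47 CPM against 9.37 and 9.64 CPM in set B. It was higher in set B alone, with a difference of 0.91 (adjusted p = 0.00836). DUSP6, a phosphatase that acts on ERK, was at 21.9 and 25.7 CPM against 12.99 and 14.7 CPM in set A and at 10.3 and 11.8 CPM against 12.2 and 10.2 CPM in set B, a difference of 0.80 (adjusted p = 0.0457). CXADR, a cell adhesion protein, was at 25.7 and 27.7 CPM against 29.8 and 29.4 CPM in set A and at 126 and 112 CPM against 70.8 and 82.6 CPM in set B, a difference of −0.78 (adjusted p = 0.00498). NID1, a basement membrane protein, was higher in set A (0.31) and lower in set B (−0.31). The count of 43 depended on single libraries. It was 19, 9, 6 and 1 without control 1, control 2, NFATC4-KO 1 and NFATC4-KO 2, and 23, 2722, 15 and 7 without control 3, control 4, NFATC4-KO 3 and NFATC4-KO 5.

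The sets were chosen from measured levels, so the size of their difference is a description. Between set B and set A, 1077 genes differed at least 2-fold, against 42 between labels within sets, and the median size of the log2 difference was 0.19 against 0.10. As a description, KCNA1, a potassium channel, was at 0.0782 to 0.378 CPM in set A and 27.1 to 35.0 CPM in set B, and TSPAN11 at 3.78 to 5.44 and 84.2 to 102 CPM. MAGEC1, a cancer-testis antigen, was at 74.5 to 77.5 CPM in set A and 0.174 to 0.303 CPM in set B, and SERPINB1 at 5.86 to 8.65 CPM in set A with no count in set B. For TSPAN11, KCNA1 and MAGEC1 no label effect was called (adjusted p of 0.254, 0.481 and 0.908).

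The same genes were set beside active NFATC4 against mock, a comparison of 3 and 4 libraries that share none with those above. Of 14094 genes tested there, 1084 (7.69%) were called higher and 860 (6.1%) lower. NFATC4 counts were higher by 1.86 ± 0.06 with active NFATC4, against a label effect of −0.10 within sets. The 2 are not like measures, since counts per gene cannot tell the transfected NFATC4 from the cell's own. CYP11B2 rose by 4.06 ± 0.12 with active NFATC4, and its label effect within sets was −0.01. MC2R rose by 0.97 with active NFATC4 and HSD3B2 by 0.61, and both were lower in NFATC4-KO (−0.53 and −0.44). COL3A1 and FN1 rose by 1.66 and 1.88, CACNA1C by 0.59 and VGF by 1.36, and these too were lower in NFATC4-KO. CYP17A1 and SULT2A1 fell with active NFATC4, by −0.45 and −0.27, as they did in NFATC4-KO. STAR, NR5A1, KCNK2, ATF3, EGR1 and PODXL had effects between −0.06 and 0.15 in active NFATC4, none of them called.

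Of the 832 genes called lower in NFATC4-KO and tested in both comparisons, 127 were called higher and 95 lower with active NFATC4, and of the 609 called higher, 41 and 56. Of the 13729 genes tested in both, 968 and 857 were called. The log2 fold changes correlated at r = −0.03 (Spearman's rho −0.09) across these genes, which are not independent replicates.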

How the data were processed

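RNA-Seq libraries of NCI-H295R cells were used, with 1 table of genes per library. The authors made stranded mRNA libraries, trimmed reads with fastp, aligned them with STAR (GRCh38.p13) and summarised them by gene in featureCounts. The deposited values are raw counts, not normalized. Tool versions and the strand and multi-mapping settings are not given in the sources used here.

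TMM factors, CPM and tests came from edgeR 4.0.16 in R 4.3.3, with DESeq2 1.42.0 and limma 3.58.1 for alternatives. The filterByExpr rule, applied to the 8 libraries, left 13868 of 21493 genes. Of all genes, 21400 had a symbol. A robust quasi-likelihood fit had label and set as terms and 5 residual degrees of freedom, and the Benjamini-Hochberg adjustment ran over all genes tested. Each SE was obtained from the log2 fold change and its F statistic (size over root of F). Sets A and B were also fitted separately, and the interaction in a fit with 4 means. Single genes were tested by exact permutation of log2(CPM + 0.5) inside the sets. Active NFATC4 and mock libraries had a fit of their own. The fits were tested on simulated counts.

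Library depth lay between 20.6 and 25.9 M assigned counts. At this depth a count of 0 allows 3 counts, or 0.117 to 0.145 CPM, for counting error only. Positions come from GENCODE (GRCh38) and promoters from RefSeq (GRCh38.p14).

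The sets, members, lists and tests were chosen with earlier results of these data known. Genes named are those of earlier work on these data (NFATC4, CYP11B2, CYP11B1, SEL1L3, NR4A1 to NR4A3, LRIG1, DLX2, PODXL and ATF3), the 10 that rose and 10 that fell most among called genes with at least 1 CPM in a label and no overlap inside either set, up to 4 called members per list, up to 5 interaction genes per direction and 5 genes per direction between sets with at least 5 CPM. The other members of the steroid list and the other called members of short lists were named after their values were seen. The alternatives were DESeq2 size factors, the Wald test of DESeq2, limma-voom with quality weights, no filter, a stricter filter (50 counts or more in 4 libraries), no robust shrinkage, all 15 libraries, no set term, a replicate block, and every library omitted once. The fit of 6 libraries with the set term was chosen after seeing the data. Results for some genes of the lists are not reported here, although the counts over the lists include them.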

Additional observations from a re-analysis of the deposited data

Results flagged for a closer look

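The label effect differed between the sets, by the test of the difference itself, for 14 of the genes named, beside 43 of all 13868 tested (0.31%). All but NR4A1, FDXR, POR and SCARB1 were named because this test called them, so for them the call is no result. FDXR, POR and SCARB1 were named after their values were seen. The log2 fold change in set B minus that in set A was 0.91 for MMP15, 0.90 for CYP21A2, 0.80 for DUSP6, 0.78 for CD82, 0.75 for SEMA4G, 0.52 for NR4A1, 0.47 for FDXR, 0.46 for POR and 0.45 for SCARB1. It was −0.87 for AHNAK, −0.78 for CXADR, −0.69 for ANKFN1, −0.64 for NID1 and −0.59 for SFRP1. CD82 was at 20.6 and 19.1 CPM in controls against 14.7 and 13.9 CPM in NFATC4-KO of set A, and at 12.3 and 11.5 CPM against 14.1 and 15.6 CPM in set B. ANKFN1 was at 146 and 138 CPM against 127 and 131 CPM in set A, and at 191 and 204 CPM against 120 and 102 CPM in set B. AHNAK, a large scaffold protein, was at 14.7 and 11.7 CPM against 17.7 and 16.6 CPM in set A, and at 83.7 and 67.5 CPM against 56.9 and 50.3 CPM in set B. SFRP1, a secreted WNT antagonist, was at 61.3 and 55.2 CPM against 61.7 and 59.0 CPM in set A, and at 300.4 and 270.3 CPM against 198 and 194 CPM in set B.

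A single control stood apart from the other 3 for 3 genes, with a gap that is 0.865 of the range of the controls for SC5D, 0.894 for MRAP and 0.852 for ITGA1, above the limit of 0.829 for 4 samples. Control 4 was low for SC5D (46.2 CPM, with the others at 50.8 to 51.5 CPM), high for MRAP (12.1 CPM, others 8.61 to 8.98 CPM) and low for ITGA1 (565 CPM, others 668 to 686 CPM). Chance alone flags about 1 in 20 such groups.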

How the results depend on the processing

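The counts of genes called for the label within sets, 609 higher and 837 lower, stayed within 1.5 times under DESeq2 size factors, both filters, no robust shrinkage, DESeq2's Wald test and the fit of all 15 libraries. They were 1162 and 1428 with limma-voom and 0 and 0 without the set term. Leaving out each library gave 225 to 951 higher and 392 to 1170 lower. The cause was not tested.

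After label and set means were removed, libraries with the same replicate number correlated at 0.0659 (number 1) and 0.0686 (number 3). Number 2 repeats the value of number 1 by construction, since set A held 2 libraries per label. On these values the numbers were not taken to pair the libraries. Before removal of the set, libraries with the same number correlated at 0.843, 0.817 and 0.742. With the replicate block, in the 6 libraries numbered 1 to 3, 42 genes were higher and 91 lower, 132 of these 133 also called with the set term. The set term in the same 6 libraries gave 180 and 293. In set A the replicate block gave 1884 higher and 2002 lower, against 1096 and 1203 without it.

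The interaction of label and set gave 43 genes, 498 with no filter, 228 with DESeq2, 236 with limma-voom and 7 with all 15 libraries, and 1 to 2722 when a library was left out, 2722 without control 4. Set A alone gave 316 higher and 548 lower with DESeq2, and 287 and 493 in the fit of 8 libraries. From that fit, leaving out a library of set A gave 38 to 59 and 79 to 165. Set B alone gave 322 and 351 with DESeq2, and 1119 lower in the fit of 8 libraries, with 163 to 1978 higher and 225 to 2012 lower when a library was left out. Of genes with an unadjusted p under 0.01 in set B, 74.9% had the same direction in set A.

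None of the effects that changed sign was called, before or after the change. With limma-voom, NID1 was at 0.049, POR at −0.047 and HSD11B2 at −0.18. With all 15 libraries, CYP11B2 was at 0.15, CYP11B1 at 1.51, KCNA1 at 0.31, MAGEC1 at 0.086 and CTPS2 at 0.32. With the replicate block, CYP11B2 was at 0.0056, AHNAK at 0.013, NID1 at 0.049, FOXC2 at −0.17, POR at −0.021 and HSD11B2 at −0.095. When libraries were left out, the range was −0.25 to 0.20 for CYP11B2, −0.20 to 0.010 for CD82, −0.039 to 0.0072 for MAGEC1, −0.080 to 0.053 for FDXR, −0.12 to 0.087 for NID1, −0.059 to 0.088 for POR and −0.18 to 0.22 for HSD11B2. Of 104 single genes, 73 lost their call without the set term and 56 with the replicate block.

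With 2 libraries per label and set, separate fits rest on spread borrowed across genes. In set B, at most 3 counts of CYP11B2 or CYP11B1 were found per library, so a difference between labels was not detectable there.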
